A study of Mus musculus with 7 samples.

Results

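Kinesins are motor proteins that walk along microtubules, and the mouse genome holds a large family of them. In dividing cells they build the spindle, move chromosomes and close the cleavage furrow. In neurons, which no longer divide, other members carry vesicles, mitochondria and receptors along axons and dendrites, and a further group shortens or steadies microtubule ends. The 32 genes described here were picked by name, from the symbols of the deposited gene list that start with Kif and a digit. Of these symbols 4 were left out, and the choice was made with earlier results of these data known. They are 32 of 21862 genes in the series. By textbook role they fall into 8 members of cell division, 13 of transport, 5 of microtubule dynamics and signalling, and 6 of the cilium and centriole. How these members were spread over the cell classes and stages of the developing cortex is the question of each comparison below.

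The cells came from embryos of CD-1, an outbred mouse strain, with no introduced allele or treatment named for any group. Dorsal forebrain was dissociated with papain, and its cells were read with Drop-seq, which captures single cells with barcoded beads. Embryonic day (E) 14.5 had 2 samples, named replicate 1 and replicate 2, and every other stage had 1 (E10.5 and E12.5 before it, E15.5, E16.5 and finally E18.5 after it). Series of 6 or 7 values below run through the samples by stage, E14.5 replicate 1 before replicate 2. No separate litters are named, and all samples but the E14.5 pair differ in stage. The p-values between classes thus cover only the spread of the class difference over samples of different stages. Stage, animal and technical differences cannot be told apart in that spread. For slopes, p-values cover only the spread around a line on embryonic day, part or all of which may be technical. Values are counts of unique molecular identifiers (UMIs, each a captured mRNA), summed over the cells of a class in a sample and given as CPM, the count divided by all UMIs of that sum and scaled to a fixed total. The 10261 cells carried 27776936 UMIs in all, between 1519473 at E16.5 and 6638760 in E14.5 replicate 1, and the 32 members took 2834 CPM of all UMIs at E10.5 and 4137 CPM in E14.5 replicate 2, the lowest and highest shares. Drop-seq counts tags at the 3′ ends of mRNAs, so that levels are compared for the same gene between classes and not between genes.

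The deposited cells carry 1 of 19 unnamed cluster labels, here given classes from marker lists that hold no kinesin. Labels 2, 5, 9 and 11 were projection-neuron-like, label 0 newborn-neuron-like (5 of 5 markers at least 2-fold above other cells), label 8 interneuron-like (10 of 10) and label 13 Cajal-Retzius-like (8 of 8). Labels 4 and 7 were intermediate-progenitor-like, the basal progenitors that mostly make neurons. Apical-progenitor-like labels, the neuroepithelial cells and radial glia of the ventricular zone, were 1, 3, 6, 10 and 12. Among them label 10 had 20 of 20 markers of G2 and M phase at 2-fold, label 6 was led by early neuroepithelial and label 12 by late glial markers. The labels were drawn by the authors from gene expression, with no statement in the sources used here that kinesins were left out, so that the p-values between classes are too small by an unknown amount. When the cells were clustered anew without any kinesin gene, 17 of the 17 members called between projection neurons and apical progenitors were called again. Of the rebuilt projection cells 77.9% carried a deposited projection label, and of the rebuilt apical cells 97.4% an apical one. In sums of a class, fewer expressing cells and less RNA per cell cannot be told apart.

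**Figure D1:**
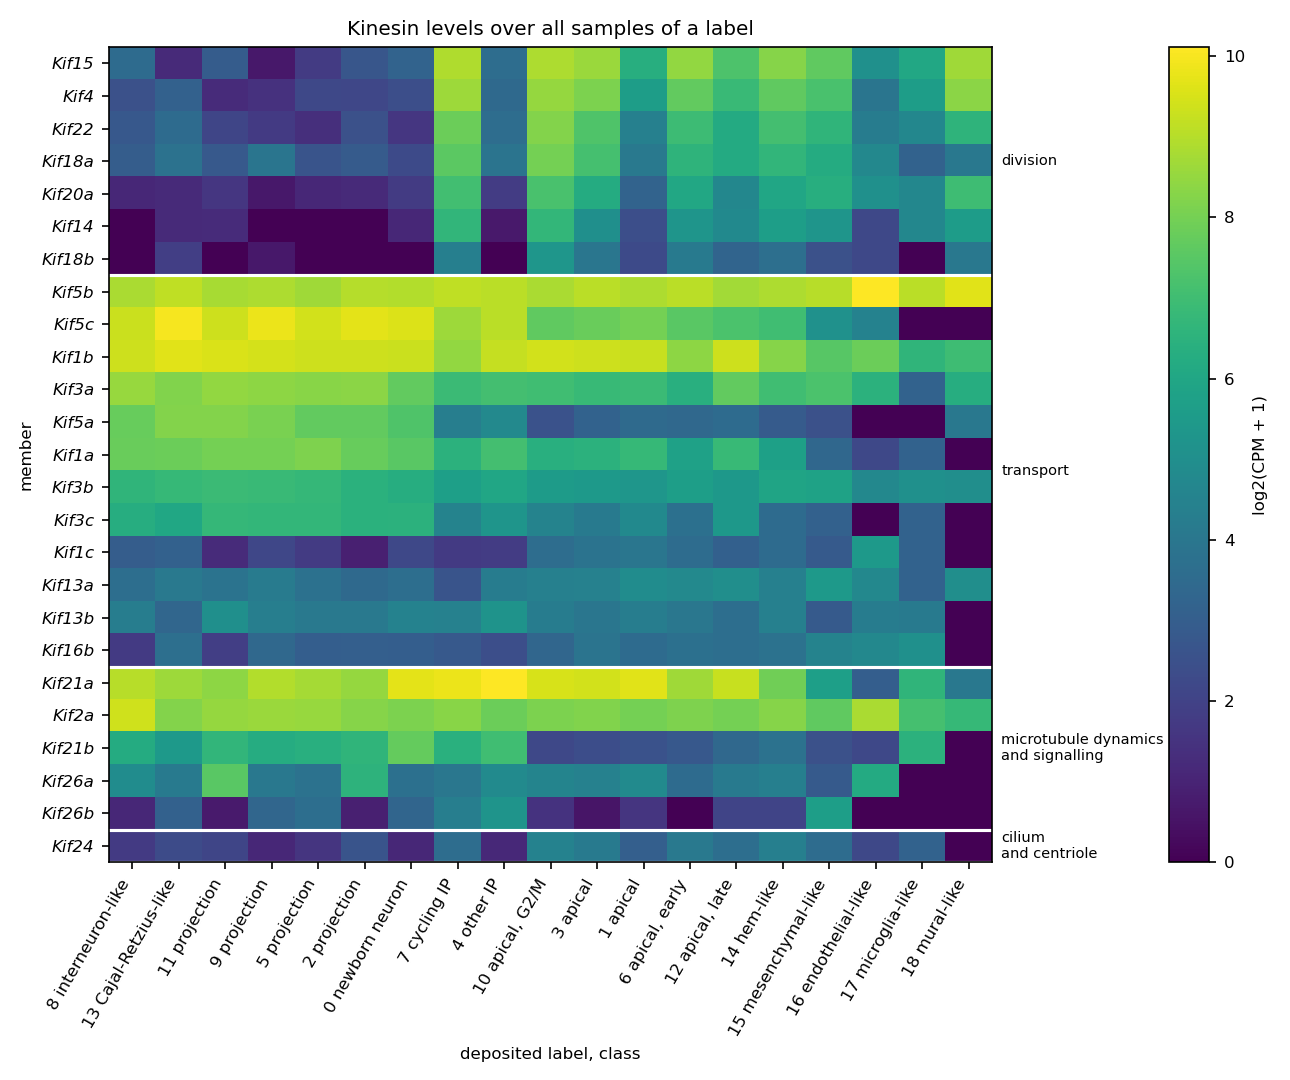
Levels of the 25 members that reached 20 CPM in at least 1 label, as log2(CPM + 1) over all samples of a label, with labels as columns (IP, intermediate-progenitor-like) and members as rows in 4 role groups. Among the neural labels, division members are bright in 7, 10, 3, 6 and 14 and dark in the neuron columns on the left, while Kif5a is bright in the neuron columns and dark in labels 10, 3 and 6.

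Projection-neuron-like cells were compared with apical-progenitor-like cells over the 6 samples that held both, E12.5 to E18.5. Of the 32 members, 21 passed the filter on low counts and were tested, 9 were higher in neurons, 8 were lower, 4 were not called and 11 were not tested. In the same fit 30.4% of all 8625 tested genes were called higher and 29.6% lower and the median log2 fold was 0.12 over the tested members and 0.02 over all genes. Calls are at an adjusted p under 0.05 in edgeR's quasi-likelihood test with Benjamini-Hochberg adjustment over all tested genes. All 7 division members tested fell. The 9 that rose were the transport motors Kif1a, Kif3a, Kif3b, Kif3c, Kif5a and Kif5c and, from the dynamics and signalling group, Kif2a, Kif21b and Kif26a.

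Among the division members the fall in neurons was close to complete. Kif14, which localises to the midbody and is needed to finish cytokinesis (chr1:136466343-136531511, mm10, as all positions here), had 0 to 1.36 CPM in projection neurons (median 0), against 29.4 to 66.0 CPM (median 56.0) in apical progenitors. Only 2 UMIs stood behind the neuron values, against 277 in apical progenitors, and the pooled level was 164-fold lower with a counting interval of 45.1 to 1365. Kif18b, which shortens astral microtubules (chr11:102905529-102925124), had 0 to 0.51 CPM in neurons (1 UMI in all) and 12.3 to 26.0 CPM in apical progenitors, a pooled level 133-fold lower with a counting interval of 23.4 to 5300. Kif15, which holds the spindle poles apart (chr9:122951046-123018733), averaged 3.91 ± 4.10 CPM in neurons and 271 ± 49.0 CPM in apical progenitors (SD, n = 6 each), a log2 fold of -6.01 ± 0.29 (SE, adjusted p = 7.0e-09 in edgeR's quasi-likelihood test). Kif4, a chromokinesin that compacts chromosomes and sets the length of the spindle midzone (chrX:100625737-100727214), averaged 2.66 ± 2.44 CPM in neurons and 191 ± 37.5 CPM in apical progenitors, a log2 fold of -5.99 ± 0.26 (adjusted p = 3.5e-09). For none of these 4 did the groups overlap, and each was lower in neurons in 6 of 6 samples. Overlap was looked at for members only, here and below, so the share of all tested genes without it is not known.

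The other division members tested fell as well. Kif20a, which carries the chromosomal passenger complex to the midzone, fell by 5.56 on the log2 scale. Kif22, a chromokinesin that pushes chromosome arms away from the poles, fell by 5.43, and Kif18a, which damps chromosome movement at the metaphase plate, by 3.95. Kif18a, with the smallest fall of the 7, had a median of 8.47 CPM in neurons, against 125 CPM in apical progenitors. Kif2b, a microtubule depolymerase of the kinetochore, had 1 UMI in the whole matrix and was not tested.

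Kinesin-1 heavy chains, which pull vesicles and mitochondria outward along axons, split into neuronal and general members. Kif5a (chr10:127225696-127263348) had 204 to 346 CPM in projection neurons (median 234), against 0 to 16.5 CPM (median 7.599) in apical progenitors, a log2 fold of 4.79 ± 0.24 (adjusted p = 8.4e-09). Kif5c (chr2:49619298-49774778) had 674 to 965 CPM in neurons (median 755), against 106 to 262 CPM (median 192) in apical progenitors, a log2 fold of 2.19 ± 0.15 (adjusted p = 1.1e-07). Neither gene's groups overlapped, and 57 UMIs in all stood behind the Kif5a values of apical progenitors. Kif5b, the heavy chain that most cell types use, had 318 to 548 CPM in neurons and 246 to 512 CPM in apical progenitors, with a log2 fold of 0.18 ± 0.12 that was not called (adjusted p = 0.20).

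Kif21b, which makes growing microtubule ends pause and is known from dendrites (chr1:136131389-136177998), had 61.7 to 148 CPM in projection neurons (median 85.0), against 2.90 to 11.01 CPM (median 6.80) in apical progenitors. Its log2 fold was 4.01 ± 0.24 (adjusted p = 4.1e-08), and the groups did not overlap. Kif26a, an atypical kinesin without motor activity that restrains growth factor signalling in enteric neurons (chr12:112146208-112181747), had 4.52 to 126 CPM in neurons (median 74.5), against 4.95 to 26.1 CPM (median 22.2) in apical progenitors, a log2 fold of 1.93 ± 0.26 (adjusted p = 4.9e-05). These groups did overlap, because the E18.5 neurons were at the low end, and Kif26a was higher in neurons in 5 of 6 samples.

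Kinesin-2 motors work as pairs of Kif3a with Kif3b or Kif3c, both in cilia and in axons. Kif3c rose by a log2 fold of 1.92 ± 0.19, with a mean of 98.7 CPM in neurons and 29.1 CPM in apical progenitors, Kif3a by 1.23 ± 0.15 and Kif3b by 1.20 ± 0.14. Kif1a, which carries precursors of synaptic vesicles, rose by 1.34 ± 0.12, with a mean of 251 CPM in neurons and 106 CPM in apical progenitors. Kif2a, a microtubule depolymerase that prunes axon branches, rose by 0.56 ± 0.12. All 5 were higher in neurons in 6 of 6 samples, and of the 5 only Kif2a had groups that overlapped. Kif1b, which carries mitochondria and vesicle precursors, had means of 693 CPM in neurons and 705 CPM in apical progenitors and a log2 fold of 0.06 ± 0.08 that was not called (adjusted p = 0.54). Kif13a and Kif13b, motors of endosomes and other vesicles, were low, with means of 14.1 and 23.8 CPM for Kif13a and 19.5 and 19.4 CPM for Kif13b in neurons and apical progenitors, and were not called (adjusted p = 0.09 and 0.75).

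Kif21a, the close relative of Kif21b that slows microtubule growth, was the only called member outside the division group that was lower in neurons (chr15:90933276-91049948). It averaged 400 ± 78.7 CPM in projection neurons and 725 ± 169 CPM in apical progenitors, a log2 fold of -0.77 ± 0.16 (adjusted p = 1.1e-03), lower in 5 of 6 samples. Kif21a and Kif21b thus had folds of opposite sign in the same comparison.

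**Figure D2:**
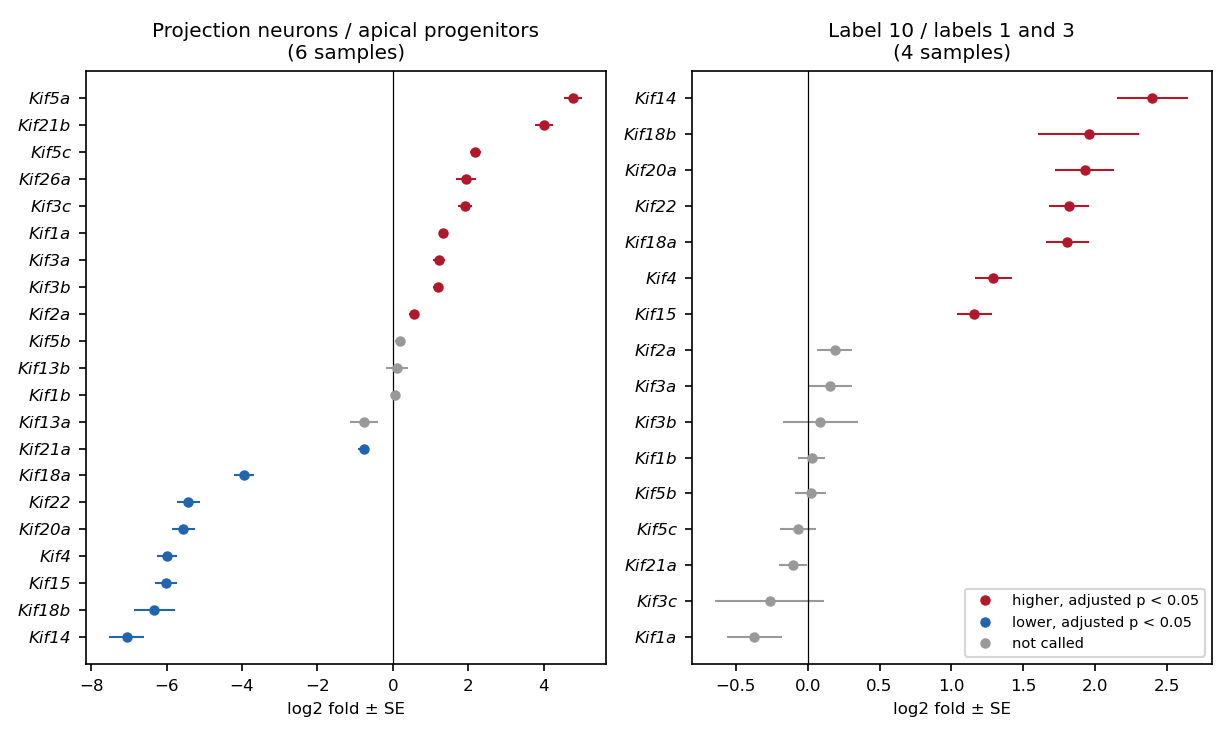
Fitted log2 folds with their standard errors (x axis) of each tested member (y axis), for projection-neuron-like over apical-progenitor-like cells in 6 samples on the left and for label 10 over labels 1 and 3 in 4 samples on the right; red and blue mark calls. The 7 division members lie between -7.06 and -3.95 on the left and between 1.16 and 2.40 on the right, where no other member is called.

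Label 10, the apical-progenitor-like cells rich in G2 and M phase markers, was compared with labels 1 and 3, the other common apical labels, over the 4 samples with at least 20 cells of each. Of the 32 members 16 were tested, and 7 were higher in label 10, 0 lower and 9 not called, while 4.93% of 6307 tested genes were called higher and 2.63% lower. The 7 were all the division members tested, and none of the 9 other members moved by more than 0.37 on the log2 scale in either direction. Their median log2 fold over all 16 was 0.17, against 0.00 over all genes. The summed level of the 20 markers of G2 and M phase, by which the label was named, was 15510 to 20552 CPM in label 10 against 3250 to 5765 CPM in labels 1 and 3. Of 18 markers of S phase, 16 were lower in label 10.

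Kif14 had 98.5 CPM in label 10 at E12.5, 71.2 and 127 in E14.5 replicates 1 and 2, and 137 at E15.5, against 19.9, 15.5, 22.6 and 13.01 CPM in labels 1 and 3 of the same samples. Its log2 fold was 2.40 ± 0.25 (adjusted p = 4.7e-10 in edgeR's quasi-likelihood test), the largest of the 7. Kif18b had 30.04, 44.5, 55.6 and 42.5 CPM in label 10 and 7.29, 9.90, 13.5 and 26.0 CPM in labels 1 and 3, a log2 fold of 1.95 ± 0.35 (adjusted p = 6.8e-05). Every sample of label 10 was above every sample of the other labels for both genes.

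Kif20a reached 123, 141, 302 and 113 CPM in label 10, against 41.8, 43.3, 31.6 and 13.01 CPM in labels 1 and 3, a log2 fold of 1.92 ± 0.20 (adjusted p = 7.6e-10). Kif22 had 299, 299, 421 and 236 CPM in label 10, against 100, 89.1, 63.2 and 65.0 CPM in labels 1 and 3, a log2 fold of 1.82 ± 0.14 (adjusted p = 1.4e-13). E14.5 replicate 2 was the highest sample of label 10 for Kif20a, Kif22 and Kif18b. Kif18a, Kif4 and Kif15 rose by 1.80 ± 0.15, 1.29 ± 0.13 and 1.16 ± 0.12. All 7 were higher in 4 of 4 samples without overlap, a count for which the share over all tested genes is not known. In the cells clustered anew without kinesins, 6 of the 7 were called again, and Kif18b was below the filter on low counts. The classes of that fit were not the same. Its G2 and M phase class held 748 cells, of which 51.7% carried label 10. Its reference also took in clusters led by labels 6 and 12.

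Within the apical labels the division members also separated label 3 from label 1. Summed over all samples, the 8 division members reached 1085 CPM in label 3, 898.6 in label 6 and 476 in label 12, against 181 in label 1 and 1674 in label 10. Kif15 had 383 CPM in label 3 and 80.8 CPM in label 1, and Kif18a 140 CPM in label 3 and 15.97 CPM in label 1. Against label 1 alone, the 7 division members were called in label 10 again.

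Intermediate-progenitor-like label 7 was compared with label 4 over the 3 samples with enough cells, E12.5, E14.5 replicate 1 and E15.5. Label 7 was higher in 20 of 20 markers of G2 and M phase and in 12 of 18 of S phase, with 0 lower. The S phase markers summed to 2782 to 3949 CPM in label 7 and 776 to 1851 CPM in label 4. Label 10 was instead lower than labels 1 and 3 in 16 of 18 S phase markers, so folds are not alike between these comparisons. Of the 32 members 17 were tested, 6 were higher in label 7, 1 was lower, 10 were not called, and the 6 were again division members. In that fit 8.69% of 5453 tested genes were called higher and 3.21% lower. The members' median log2 fold was 0.04, against -0.03 over all genes.

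Kif14 had 86.1, 72.8 and 263 CPM in label 7, against 0 CPM in each of the 3 samples of label 4. Set against a floor of 3 counts over the pooled label 4 cells, its level in label 7 was 43.6-fold higher. The exact 95% lower limit of the pooled ratio, from counting error alone, was 34.9. In E14.5 replicate 2, outside this comparison, label 4 had 5.26 CPM of Kif14. Kif20a had 112, 204 and 92.3 CPM in label 7 and 2.68, 3.12 and 0 CPM in label 4 (3 UMIs in all), a pooled ratio of 52.1 with a counting interval of 17.5 to 256. The groups were far apart for both.

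Kif15 had 467, 544 and 469 CPM in label 7, against 21.4, 10.9 and 9.13 CPM in label 4, a log2 fold of 5.20 ± 0.29 (adjusted p = 7.5e-13 in edgeR's quasi-likelihood test). Kif4 had 420, 340 and 398 CPM in label 7, against 24.1, 6.23 and 4.57 CPM in label 4, a log2 fold of 5.06 ± 0.33 (adjusted p = 1.1e-11). Kif22 and Kif18a rose by 4.55 and 4.07. Kif18b, with 19 UMIs in label 7 and 0 in label 4, was below the filter and not tested.

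The member lower in label 7 was Kif1b, the mitochondrial and vesicle motor (chr4:149176319-149307693). It had 331, 369 and 412 CPM in label 7, against 477, 581 and 735 CPM in label 4, a log2 fold of -0.59 ± 0.16 (adjusted p = 0.017), lower in 3 of 3 samples. The call was lost without E14.5 replicate 1 (adjusted p = 0.29), without E15.5 (adjusted p = 0.093), in DESeq2 (adjusted p = 0.29) and, among the others, at the 5% mitochondrial limit (adjusted p = 0.18), with the log2 fold between -0.63 and -0.45 in the settings that lost it.

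The promoters of division members were read for the letters TTTGAA, the core of the cell cycle gene homology region that the MuvB complex binds, and CCAAT, the box bound by NF-Y, both known from promoters of mitotic genes. RefSeq promoters on GRCm38.p6 were matched for 26 of the 32 members, and the 250 bases before the start were searched on both strands. No matches overlapped each other. TTTGAA was found in 3 of 7 division members (Kif14, Kif15 and Kif22), 0 of 10 transport members, 1 of 4 dynamics and signalling members (Kif26b) and 1 of 5 cilium and centriole members (Kif27), against 16.3% of 27025 mouse promoters. CCAAT was found in 5 of 7 division, 3 of 10 transport, 1 of 4 dynamics and signalling and 3 of 5 cilium and centriole members, against 34.5% of all promoters. The RefSeq start of Kif14 lies 1505 bases after the GENCODE gene start, inside the gene, and those of Kif17 and Kif27 lie 11816 and 4175 bases after it. Without these 3 windows TTTGAA was in 2 of 6 and CCAAT in 4 of 6 division members. Below are windows that end at the RefSeq start, 5′ to 3′, with the matches on either strand in capitals: TTCAAA close to the start in the division members Kif15 (chr9:122951051-122951080, plus strand) and Kif22 (chr7:127042421-127042450, minus strand), paired CCAAT boxes in Kif18b (chr11:102925125-102925184, minus strand), the transport member Kif5c with neither (chr2:49619226-49619285, plus strand), and Kif26b (chr1:178529025-178529124, plus strand), no division member, with both.
Kif15: ggggcgccaaaTTCAAAtctgcggccatct
Kif22: ggggccccggtaaTTCAAAagagagaagcg
Kif18b: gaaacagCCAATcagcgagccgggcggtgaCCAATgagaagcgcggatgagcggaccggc
Kif5c: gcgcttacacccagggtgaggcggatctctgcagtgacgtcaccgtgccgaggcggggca
Kif26b: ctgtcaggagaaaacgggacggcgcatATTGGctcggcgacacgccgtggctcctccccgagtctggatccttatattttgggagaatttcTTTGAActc

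The match in Kif15 began 19 bases and that in Kif22 17 bases before the RefSeq start. The GENCODE gene start lies 35 bases (Kif15) and 51 bases (Kif22) before the RefSeq start, so that both windows lie after it. Kif18a, a division member called in all 3 comparisons above, had neither motif in 250 bases, and Kif26b, which has both, was not among the members called with the cell cycle. The letters describe these windows and do not show that a factor binds there.

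Partner genes of the motors were read from the fits of projection neurons over apical progenitors and of label 10 over labels 1 and 3. Over all 8625 genes tested between projection neurons and apical progenitors, 30.4% were called higher in neurons and 29.6% lower. Of 25 light chains and cargo adaptors 23 were tested, 17 were higher in neurons and 3 lower, with the largest rises in Ppfia2 (log2 fold 4.76) and Ppfia3 (3.13), liprins of the synapse, and the largest falls in Hap1 (-3.24), an adaptor of huntingtin, and Rhot2 (-0.91), a mitochondrial anchor. Kifap3, which joins the Kif3 pair to cargo, averaged 412 CPM in neurons and 125 CPM in apical progenitors. Of 20 dynein and dynactin genes, which form the motor that walks the other way, 16 were higher in neurons, led by Dync1i1 (5.15) and Dync1li1 (1.41), and 1 was lower, Nde1 (-5.74), a dynein regulator of the progenitors' spindle. All 22 spindle and midzone partners were lower in neurons, led by Aurkb (-7.64) and Anln (-7.50), and so were Cenpe (-6.02) and Kifc1 (-4.54), the 2 tested of 5 other kinesin superfamily genes.

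In label 10 the 22 spindle and midzone partners were all higher than in labels 1 and 3, led by Plk1 (2.62) and Aurka (2.61), as were Cenpe (2.03) and Kifc1 (1.93). Of 18 tested dynein and dynactin genes 2 were higher, Nde1 (1.68) and Dynll1 (0.54), and 0 of 15 tested light chains and adaptors were called. Over all 6307 tested genes 4.93% were called higher and 2.63% lower, and whether these lists differed from that share was not tested. Several of these partners, Plk1, Aurka, Aurkb and Cenpe among them, are also markers by which label 10 was named.

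**Figure D3:**
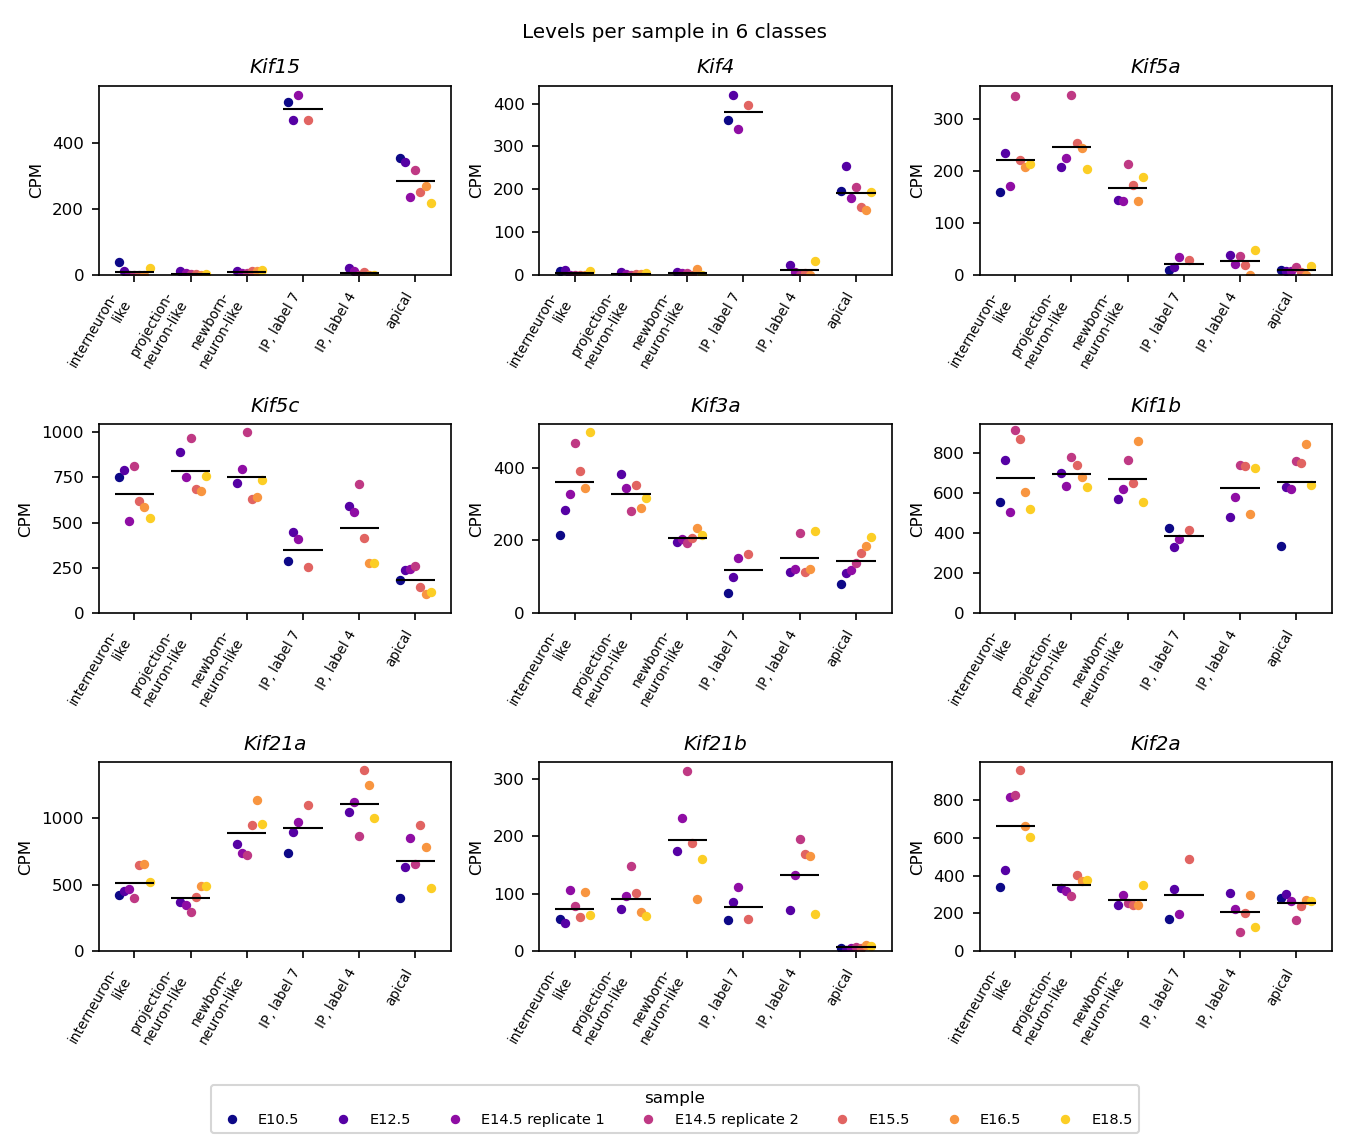
Level in CPM (y axis) of 9 members in each sample (points, coloured by stage) of 6 classes (x axis; IP, intermediate-progenitor-like), with the mean of a class as a bar; samples with too few cells of a class are left out. Kif15 and Kif4 are high in label 7 and the apical class, Kif5a and Kif5c are highest in the 3 neuron classes, Kif21a is highest in label 4, Kif21b in the newborn class and Kif2a in interneurons.

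Projection-neuron-like cells were next compared with the newborn-neuron-like cells of label 0 over 6 samples. Of the 32 members 13 were tested, 6 were higher in projection neurons, 2 lower, 5 not called and 19 not tested, while 15.2% of 8059 tested genes were called higher and 14.2% lower. The members' median log2 fold was 0.14, against -0.01 over all genes.

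Kif26a had 4.52 to 126 CPM in projection neurons (median 74.5), against 0 to 19.1 CPM (median 6.44) in newborn neurons, a log2 fold of 2.93 ± 0.25 (adjusted p = 4.1e-08 in edgeR's quasi-likelihood test). Kif3a had 280 to 382 CPM in projection neurons (median 331), against 192 to 234 CPM (median 204) in newborn neurons, a log2 fold of 0.71 ± 0.09 (adjusted p = 6.1e-06). Both were higher in 6 of 6 samples, and the 2 groups of Kif3a did not overlap.

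Kif5a averaged 247 ± 52.5 CPM in projection neurons and 167 ± 29.7 CPM in newborn neurons, a log2 fold of 0.57 ± 0.10 (adjusted p = 1.3e-04). Kif1a averaged 251 ± 55.2 CPM in projection neurons and 178 ± 53.1 CPM in newborn neurons, a log2 fold of 0.49 ± 0.10 (adjusted p = 8.0e-04), and Kif2a rose by 0.36 ± 0.10 (adjusted p = 6.7e-03). Among cells with at most 5% mitochondrial UMIs both calls were lost (adjusted p = 0.084 for Kif1a and 0.053 for Kif2a), and likewise without the sample as a block (adjusted p = 0.051 and 0.074). Kif3b rose by 0.35 ± 0.13 with an adjusted p of 0.048, and its call was lost in DESeq2 (adjusted p = 0.15) and in 5 of the 6 fits that left out a sample, those without E12.5, either E14.5 replicate, E15.5 or E16.5. Kif5c, Kif5b, Kif1b and Kif3c lay within 0.14 of 0 on the log2 scale and were not called, with Kif5c at 787 CPM in projection neurons and 754 CPM in newborn neurons and Kif3c at 98.7 and 93.9 CPM.

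The members lower in projection neurons were Kif21a and Kif21b. Kif21a had 296 to 492 CPM in projection neurons (median 390), against 725 to 1136 CPM (median 877) in newborn neurons, a log2 fold of -1.13 ± 0.07 (adjusted p = 5.4e-10). Kif21b had 61.7 to 148 CPM in projection neurons (median 85.0), against 90.9 to 313 CPM (median 181) in newborn neurons, a log2 fold of -1.09 ± 0.11 (adjusted p = 5.3e-07). Both fell in 6 of 6 samples, with groups that overlapped for Kif21b and not for Kif21a.

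Along the labels Kif21a was highest in label 4, the intermediate progenitors with lower G2, M and S phase markers than label 7. There it had 863 to 1365 CPM over 6 samples. It was above label 0 in 6 of 6 samples and above labels 7 and 1 in 4 of 4 samples each. Kif21b was under 13 CPM in every apical label and in label 14, 84.2 CPM in label 7, 129 CPM in label 4 and 208 CPM in label 0, and was higher in label 0 than in label 4 in 5 of 6 samples. Outside the neural labels it reached 90.1 CPM in the microglia-like label 17, from 11 UMIs. These orders are descriptions and were not tested.

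Interneuron-like cells, the GABAergic neurons that migrate into the cortex from the ventral forebrain, were compared with projection neurons over 6 samples. Of the 32 members 12 were tested, 2 were higher in interneurons, 2 lower, 8 not called and 20 not tested, while 6.35% of 6757 tested genes were called higher and 7.7% lower. The members' median log2 fold was -0.14, against 0.00 over all genes.

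Kif2a, the depolymerase of branch pruning (chr13:106958996-107022126), had 431 to 956 CPM in interneurons (median 741), against 292 to 404 CPM (median 353) in projection neurons. Its log2 fold was 0.99 ± 0.13 (adjusted p = 3.9e-06 in edgeR's quasi-likelihood test), higher in 6 of 6 samples without overlap, and it was called in every alternative. Interneurons of the 7 samples had 338, 431, 816, 824, 956, 665 and 604 CPM of it, in sums of 30 to 116 cells, lowest at E10.5 and highest at E15.5.

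Kif21a had 401 to 656 CPM in interneurons (median 493), against 296 to 492 CPM (median 390) in projection neurons, a log2 fold of 0.35 ± 0.11 (adjusted p = 0.037). Kif26a had 4.83 to 73.9 CPM in interneurons (median 16.8), against 4.52 to 126 CPM (median 74.5) in projection neurons, a log2 fold of -1.40 ± 0.38 (adjusted p = 0.013). Kif5c had 506 to 813 CPM in interneurons (median 602), against 674 to 965 CPM (median 755) in projection neurons, a log2 fold of -0.35 ± 0.10 (adjusted p = 0.024). The groups overlapped for all 3. Each of these 3 calls was lost without E14.5 replicate 1 (adjusted p = 0.095, 0.14 and 0.11 for Kif21a, Kif26a and Kif5c) and without E14.5 replicate 2 (0.075, 0.076 and 0.052), and over all alternatives their adjusted p reached 0.44, 0.21 and 0.16.

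Kif1a, Kif3a and Kif5a were not called between the neuron types, with log2 folds of -0.17 ± 0.15, 0.22 ± 0.14 and -0.13 ± 0.14. Cajal-Retzius-like cells, the early marginal zone neurons of label 13, carried Kif5c at 887 to 1117 CPM, Kif1b at 682 to 1038 CPM and Kif5a at 186 to 474 CPM over the 5 samples with at least 20 of these cells, and 38.3 CPM of all division members together. The 4 projection labels lay between 13.9 and 21.4 CPM for that sum, and label 8 at 29.1 CPM.

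Among the projection labels Kif26a was highest in label 11. In label 11 it had 217, 189, 175 and 116 CPM from E14.5 to E16.5. In label 2 it had 86.6, 104, 90.2 and 57.9 CPM from E12.5 to E15.5. In labels 5 and 9 it lay at or under 43.4 CPM in all samples but one, label 5 of E14.5 replicate 1, which had 118 CPM from 28 cells. Label 11 was above label 9 and above label 5 in 4 of 4 samples each, and above label 2 in 3 of 3. Label 2 was above label 9 in 3 of 3 samples, but above label 5 in only 2 of 3.

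**Figure D4:**
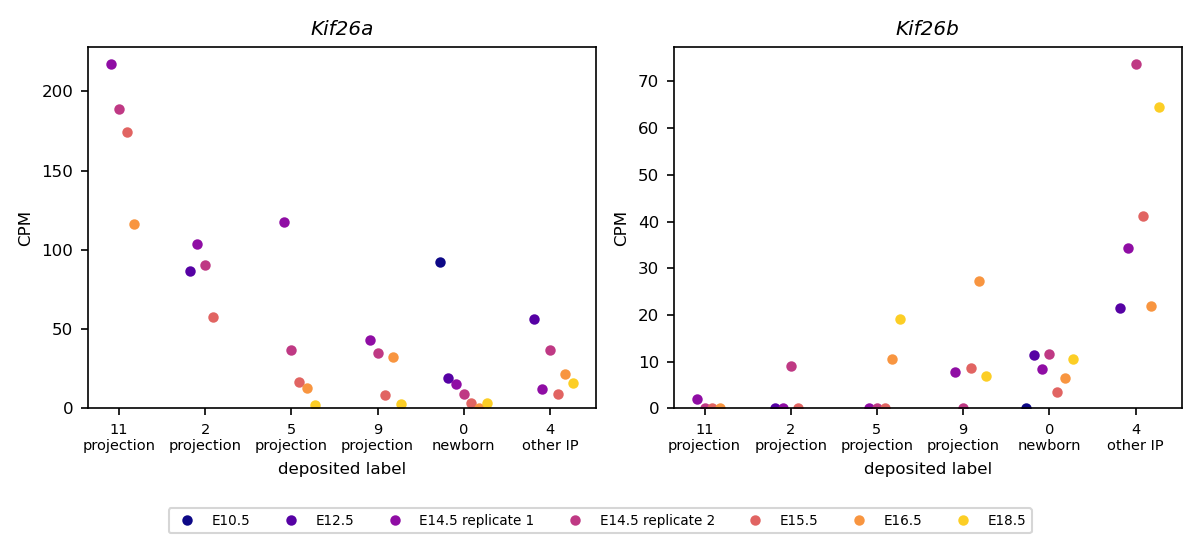
Level in CPM (y axis) of Kif26a and Kif26b in each sample (points, coloured by stage) of 4 projection-neuron-like labels, newborn label 0 and intermediate-progenitor-like label 4 (x axis), where a label had at least 15 cells. Kif26a is highest in label 11 with 116 to 217 CPM, and Kif26b in label 4 with 21.4 to 73.7 CPM.

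Kif26b, the relative of Kif26a that acts in cell adhesion in the developing kidney (chr1:178529125-178939200), followed other cells. It had 21.4 to 73.7 CPM in label 4 over 6 samples, above label 0 in 6 of 6 and above label 1 in 4 of 4 samples. Label 7, also intermediate-progenitor-like, had 0 CPM at E10.5, 11.7 at E12.5, 43.7 in E14.5 replicate 1, 14.2 at E15.5 and 19.6 at E18.5. Label 4 was above label 7 in 3 of 4 samples. Over 3 samples Kif26b was not called between them (log2 fold -0.38 ± 0.53, adjusted p = 0.74 in edgeR's quasi-likelihood test). In label 11 it summed to 0.67 CPM and in the apical labels to 0 to 3.20 CPM. The mesenchymal-like label 15, which came from E10.5 alone, had 49.7 CPM.

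The slope on embryonic day was fitted over all 7 samples in apical-progenitor-like cells, where 22 of the 32 members were tested, 2 rose with day, 0 fell, 20 were not called and 10 were not tested. Over all 8392 tested genes 6.39% rose and 2.92% fell, and the median slope was 0.04 for the members and 0.00 for all genes, on the log2 scale per day. Kif3a had 81.1, 111, 119, 138, 165, 183 and 209 CPM in the 7 samples from E10.5 to E18.5, a slope of 0.18 ± 0.03 (adjusted p = 7.7e-03 in edgeR's quasi-likelihood test). Kif3c had 11.9, 17.1, 26.3, 28.6, 24.1, 29.3 and 49.5 CPM in the same order, a slope of 0.25 ± 0.05 (adjusted p = 0.014).

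The late glial label 12 entered this class with stage, from 0 cells at E10.5 and E12.5 to 161 of 193 apical cells at E18.5. Without label 12 both calls were lost, with slopes of 0.13 for Kif3a (adjusted p = 0.11) and 0.22 for Kif3c (adjusted p = 0.17). Both were also lost without E18.5 (adjusted p = 0.052 and 0.16), and that of Kif3c without E10.5 (adjusted p = 0.079). Early neuroepithelial label 6 made up 621 of 684 apical cells at E10.5, and the calls of Kif3a and Kif3c were kept without it. Projection neuron markers summed to 391 to 887 CPM in the apical class and 3 of 14 rose with day. Their part in the slopes was not tested.

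None of the 7 division members tested had a called slope over the whole apical class, in edgeR or in DESeq2, and 1 of them had an unadjusted p under 0.05 by each tool. Summed over the class, the 8 division members took 870, 987, 779, 1037, 794, 792 and 816 CPM in the 7 samples. With label 12 left out, the same sum was 870, 987, 794, 1079, 1094, 1431 and 1691 CPM, and Kif14 and Kif22 were called, with slopes of 0.27 (adjusted p = 0.048) and 0.21 (adjusted p = 0.020). That class held 25 cells at E16.5 and 32 at E18.5, of which 20 and 17 carried label 10, the label named for G2 and M phase. Kif14 had 29.4 to 66.0 CPM and Kif15 216 to 354 CPM, with slopes of 0.11 ± 0.05 and -0.09 ± 0.04 and adjusted p of 0.22 and 0.13. Of 18 S phase markers 14 fell with day and 1 of 20 markers of G2 and M phase rose in the same class. Kif1b had 335 CPM at E10.5 and 617 to 844 CPM later, a slope of 0.12 ± 0.05 that was not called (adjusted p = 0.12) but was without label 12 (adjusted p = 0.016) and without E18.5 (adjusted p = 0.045). Kif1a, with a slope of 0.14 ± 0.04 (adjusted p = 0.052), was called in DESeq2 (adjusted p = 0.019). At E12.5 Kif1b had 368 CPM in the early label 6 and 620 CPM in label 1.

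In projection-neuron-like cells the slope was fitted over 6 samples, with 17 members tested, 1 rising, 1 falling, 15 not called and 15 not tested. Over all 9712 tested genes 2.05% rose and 1.03% fell, and the median slope was 0.00 for the members and for all genes. Kif26a had 83.3, 126, 107, 65.7, 33.9 and 4.52 CPM in the 6 samples from E12.5 to E18.5, a slope of -0.63 ± 0.15 (adjusted p = 0.035). Kif26b had 0, 1.53, 2.71, 2.33, 12.6 and 14.6 CPM in the same order, a slope of 0.81 ± 0.18 (adjusted p = 0.026). Levels of Kif26b were low throughout, with 0 to 2.71 CPM in the first 4 samples, where 3 counts give 1.53 to 4.07 CPM.

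Label 5 held 11 of 341 projection cells at E12.5 and 450 of 685 at E18.5. Without it the slope of Kif26a was -0.42 (adjusted p = 0.16), and Kif26b was not tested. The call of Kif26a was also lost without E18.5 (slope -0.25, adjusted p = 0.37), among cells with at most 5% mitochondrial UMIs (slope -0.28, adjusted p = 0.46), and without E16.5 (0.11) or E14.5 replicate 2 (0.065). Without E12.5 the slope of Kif26a was -1.04. The call of Kif26b was lost without E14.5 replicate 1 (adjusted p = 0.080). Within label 5 Kif26a had 118, 36.6, 16.5, 12.7 and 2.39 CPM from E14.5 replicate 1 to E18.5, lower at each later stage. The transport motors Kif1a, Kif3a, Kif5a, Kif5b and Kif5c had slopes between -0.05 and 0.03 in projection neurons and none was called.

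**Figure D5:**
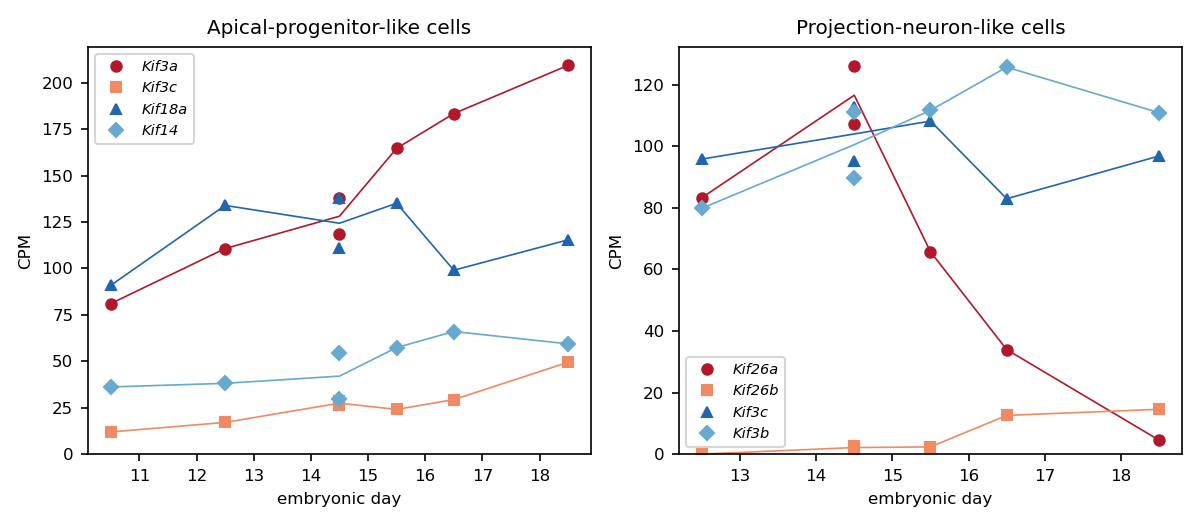
Level in CPM (y axis) against embryonic day (x axis) of 4 members in apical-progenitor-like cells (left) and 4 in projection-neuron-like cells (right), with each sample as a point and lines through the mean per stage. Kif3a runs from 81.1 to 209 CPM in apical progenitors, and Kif26a is at 4.52 CPM in the E18.5 projection neurons.

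The remaining members were low. Of the cilium and centriole group, Kif24, which keeps centrioles from growing cilia, had at most 21.5 CPM in a label summed over all samples, in label 10, where the samples with at least 15 cells had 8.34 to 81.5 CPM, and the 6 members together took 20.9 to 80.6 CPM of the apical class and 5.02 to 20.4 CPM of projection neurons. Kif7, the Hedgehog regulator at the cilium tip, averaged 15.3 CPM and Kif27, its relative, 4.57 CPM in the apical class over 7 samples. Without the filter on low counts Kif24 was called lower in projection neurons than in apical progenitors (log2 fold -2.39, adjusted p = 4.9e-08), as were Kif7 (-2.16), Kif1c (-2.51) and Kif13a (-0.70). Kif6, Kif9 and Kif19a, motors of motile cilia, had 50, 21 and 8 UMIs in the whole matrix. Of the transport group Kif16b, which moves early endosomes, had at most 32.7 CPM (label 17) and Kif1c at most 43.4 CPM (label 16) in a label summed over all samples, and Kif17, a dendritic motor, had 8 UMIs in all. Kif2b, Kif6, Kif9, Kif17 and Kif19a were below the filter in all 7 comparisons.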

How the data were processed

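The deposited file is a matrix of counts, whole UMIs per gene and cell, with a table of the authors' cluster label and library per cell. Per the labels, cells were prepared by Drop-seq, and per the submitters' processing notes Drop-seq protocol 3.1, Seurat 3.1.5 and the mm10 build were used, while no aligner is given in the sources used here. The lowest number of genes in a cell of the file was 501, and the highest mitochondrial share was 9.996417%. The 12 libraries were joined to 7 samples by their labels. One library of E14.5 replicate 1 was assigned by inference, and a library listed for E16.5 was carried by no cell. A barcode occurred in more than 1 library in 4 cases, one of them in 7 libraries.

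The 13 cells with over 2% haemoglobin UMIs were set aside. Scrublet called 95 doublets (0.926%), which were kept and left out as an alternative. Counts were summed per sample and class, leaving out sums of fewer than 20 cells such as the 3 projection cells of E10.5, and tested with edgeR 4.0.16 (R 4.3.3, limma 3.58.1): TMM, the default filter on low counts, quasi-likelihood F test, Benjamini-Hochberg over all tested genes, threshold 0.05. Both classes of a comparison come from the same samples, so the sample was a block. Slopes used embryonic day with no block. Per-label values per sample needed 15 cells. Counting intervals are exact at 95% and, like the floor of 3 counts, cover counting error only. The fit was tested on simulated counts. Clustering without the 43 kinesin genes of the matrix used scanpy 1.11.5 (2000 variable genes, 30 components, 20 neighbours, Leiden resolution 1).

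Named members are those called in any comparison or with at least 20 CPM in a label, 25 of 32, and the others are accounted for by their counts. The members, marker lists and partner lists were chosen with earlier results of these data known. Alternatives were DESeq2 1.42.0, size factors, no filter, 50 cells per sum, at least 1000 UMIs per cell, at most 5% mitochondrial UMIs, doublets left out, each sample left out, no replicate block, stage rank, and classes rebuilt or with a label left out. Leaving out label 6 or 11, label 1 alone, the shared barcode and the inferred library were added after seeing the data. Promoter sequences are from RefSeq on GRCm38.p6 and gene positions from GENCODE on mm10.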

Additional observations from a re-analysis of the deposited data

Results flagged for a closer look

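Kif1c, a motor of the kinesin-3 family that is widely expressed, had 43.4 CPM in the endothelial-like label 16, which enters no comparison above, from 12 counts (exact 95% Poisson interval 22.4 to 75.7 CPM, counting error only). Its highest level in labels 0 to 13, summed over all samples, was 14.5 CPM. In single samples Kif1c reached 55.6 CPM in label 10 of E14.5 replicate 2, from 20 cells. Label 16 had 59.0 CPM at E18.5, also from 20 cells, its only sample with at least 15 cells. Kif1c is given here because label 16, where its summed level was higher, lies outside the comparisons. The difference was not tested, and no stage had more than 2 samples, so that a sample standing apart within a stage could not be looked for.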

How the results depend on the processing

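Of 748 values of called members over all alternatives, 694 kept their direction and their side of the threshold, 54 kept their direction but missed the threshold, and 0 changed sign. Calls lost because a member was not tested in an alternative are not among these values. Examples are Kif18b in the cells clustered anew without kinesins and Kif26b without label 5. The count of called members stayed within 1.5 times in every alternative run for projection against apical cells (16 to 21, against 17), label 10 against labels 1 and 3 (6 to 7, against 7) and label 7 against label 4 (6 to 8, against 7). For projection against newborn cells it was 5 at the 5% mitochondrial limit and 5 with no replicate block, against 8. For interneurons against projection cells, 4 in the fit as reported, it was 1 in DESeq2, 1 with at least 50 cells, 2 at the 5% mitochondrial limit and 1 with no replicate block, and 1 to 4 when a sample was left out. With no replicate block it was 17, 7 and 6 in the first 3 comparisons. The apical slope, with 2, gave 1 at the 5% mitochondrial limit and 1 to 3 when a sample was left out. It gave 3 without label 12, of which 0 were the same members. The projection slope, with 2, gave 0 at the 5% mitochondrial limit, 0 without label 5 and 0 to 2 when a sample was left out. The cause of these changes was not tested. Alternatives that left out cells or samples had fewer counts, and DESeq2 and the fit with no replicate block had the same counts. For the slopes no paired analysis was possible because each sample holds 1 stage. Members under about 20 CPM rest on few UMIs, which is the limit of depth here.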

Other observations

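Outside the neural labels the family looked different. Kif5b, the widely used kinesin-1 heavy chain, reached 1077 CPM in the endothelial-like label 16 and 813 CPM in the mural-like label 18. Label 16 also had Kif2a at 455 CPM and Kif26a at 72.3 CPM, and Kif15 had 407 CPM in label 18 and 200.2 CPM in the mesenchymal-like label 15. These labels hold few cells and their values are descriptions.

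The 2 samples of E14.5 differed in several transport motors across all labels that both held. Kif5b was lower in replicate 2 in 10 of 10 labels, with 221 to 381 CPM in replicate 2 and 454 to 619 CPM in replicate 1. Kif1b was higher in replicate 2 in 10 of 10 labels, with 676 to 913 CPM in replicate 2 and 506 to 683 CPM in replicate 1, and Kif1a was higher in 10 of 10 as well. Kif2a and Kif21a were each lower in replicate 2 in 9 of 10 labels. The labels of a sample share their libraries, so that these are not independent values.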
